A study of Mus musculus with 2 samples.

Results

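The genes described here encode the proteins of the cytosolic ribosome, and their RNA was counted in cells of mouse tumours enriched for immune cells. They were chosen by name, not by level: symbols that begin with Rps or Rpl followed by a digit, together with Rpsa, Rplp0, Rplp1 and Rplp2, leaving out names with -ps, the Rps6k kinases and Rpl7l1. The rule finds 85 of the 32285 features of the tables. By role, 31 belong to the small subunit, 43 to the large subunit and 3 to the stalk (Rplp0, Rplp1, Rplp2). Another 7 are paralogues of a standard subunit gene (Rpl3l, Rpl10l, Rpl22l1, Rpl36al, Rpl39l, Rps27l and Rps27rt), and 1, Rps19bp1, encodes a partner of a ribosomal protein rather than a ribosomal protein.

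Both groups were BALB/c mice aged 5 weeks at the start, which carried subcutaneous tumours grown from CT26 cells, a mouse colon carcinoma line. One group ate a normal diet and the other a diet from which arginine had been removed at equal calories. The diets began 1 week before the cells were injected, and tumours were taken 20 days after it. Cells bound by magnetic beads against CD45, the surface protein shared by leukocytes, were run on the 10x 3′ platform as 1 library per diet. The libraries are called Arg and Control after their titles; the sample labels give no diet, and Arg is read as the arginine-deficient group from the series' design text. The labels do not say how many mice went into a library. With 1 library per diet there is no replicate, no test and no p-value below, and a diet effect cannot be told apart from a difference between 2 preparations.

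A ribosome joins a small subunit, which reads the mRNA, to a large subunit, which forms the peptide bond. The stalk proteins of the large subunit recruit the elongation factors that drive each step. Ribosomal protein mRNAs are among the most abundant in a cell, their output follows growth signals through mTORC1 and Myc, and many begin with an oligopyrimidine tract (5′ TOP) that places their translation under mTORC1 control. Immune cells differ widely in ribosome content, which rises when lymphocytes are activated and is low in mature neutrophils.

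The sequences of 2 pairs of genes named in the results below are shown. Rpl39 (chrX:37082520-37085402, minus strand) and its paralogue Rpl39l (chr16:10170226-10174911, plus strand; both positions GRCm38, GENCODE) have coding sequences of the same length, and Rpl39l had the widest range between cell classes. Capitals mark every base at which the 2 coding sequences differ. They differ at 23 of 156 bases including the stop codon (85.3% identity), and 16 of those differences lie at the third base of a codon.

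Rpl39: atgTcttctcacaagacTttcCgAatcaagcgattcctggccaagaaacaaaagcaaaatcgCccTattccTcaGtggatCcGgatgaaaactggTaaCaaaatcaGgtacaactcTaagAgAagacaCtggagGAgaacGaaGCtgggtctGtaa

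Rpl39l: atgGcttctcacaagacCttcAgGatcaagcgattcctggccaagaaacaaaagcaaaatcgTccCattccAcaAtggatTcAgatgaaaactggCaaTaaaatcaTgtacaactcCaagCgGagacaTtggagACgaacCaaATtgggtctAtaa

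Rps27 and Rpl5 stood near opposite ends of the comparison of Arg with Control within the family. Their transcription starts are shown as 30 bases with 10 before the RefSeq start site (GRCm38.p6), Rps27 at chr3:90213629-90213658 on the minus strand and Rpl5 at chr5:107900518-107900547 on the plus strand. Capitals mark the unbroken run of C and T that begins at the start site or, where the first base is neither, that base alone.

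Rps27: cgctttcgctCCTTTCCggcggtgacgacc

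Rpl5: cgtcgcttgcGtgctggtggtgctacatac

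Among RefSeq genes whose symbols fit the naming rule, 68 had a start site, read on the strand of the gene. A run of C followed by at least 4 more C or T at the annotated start was found for 15 (22.1%). The same run was found for 2.96% of the 26957 other genes. Rpl32l, Rpl37rt and Rps23rg1 are among the 68 but are not features counted as members here, and Rpl32l had the run. The share among the members alone is thus not given. A match describes these letters only, and an annotated start a few bases away from the used one hides a run. At the end of Rps27 within the family, Rps28 and Rpl41 had runs of only 3 and 0 bases. At the end of Rpl5, Rps18 and Rpl28 had a run of the kind counted here. Whether start sites go with the order of the members was not tested.

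The libraries held 14540 (Arg) and 14343 (Control) cell barcodes with 155927693 and 191505551 counted molecules (unique molecular identifiers, UMIs). After filters on mitochondrial share and doublets, 12928 Arg and 12736 Control cells were kept, with medians of 8278 and 9994 UMIs per cell. The libraries shared 44 barcodes. Cells were grouped by clustering without the 85 members, so that ribosomal protein levels did not set the groups. A group is called X-like where the fixed markers of type X scored highest in it. Leading genes could only withhold a name, so they need not include markers of type X. The 10 leading genes of C0, the largest macrophage-like cluster, hold no macrophage marker. A cluster of 527 Arg and 1437 Control cells led by Rhox5, Tm4sf1, Rpl39l and Lgals7 met no marker rule and is called the Rhox5 cluster. Ptprc, which encodes CD45, had a UMI in 4.65% (Arg) and 3.41% (Control) of its cells thinned to 2000 UMIs, against 50.9% and 47.7% of macrophage-like cells, so the defining marker of the sort was scarce in it. These cells were deep, with medians of 34793 and 33761 UMIs. A pair of clusters with CD8 T cell markers also stayed unnamed, because Tcrg-C2, a marker of gamma-delta T cells, was among their leading genes; they are called the Cd8a clusters.

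Ribosomal protein genes made up 15.6% of all UMIs in Arg and 19.1% in Control. These totals, and the levels over all cells below, mix classes that differ in number between the libraries. The deep Rhox5 cluster, where the share was 27.5% and 25.9%, had 527 Arg and 1437 Control cells. How much of the gap comes from this mix was not tested. The median member stood at 1770 CPM, the UMIs of a gene scaled to a common total of UMIs, in Arg and 2259 CPM in Control. Rpl23, a large subunit gene, had the most UMIs in Arg, 4332 CPM against 4719 CPM in Control. In both libraries 81 of the 85 members passed 50 CPM. The members below it were Rps19bp1, Rpl29, Rpl3l and Rpl10l. Rpl29 was listed at only 27.3 and 27.4 CPM; it shares its 3′ end with an annotated copy, Gm3550, so its level is uncertain. Rpl3l, known as a heart and skeletal muscle paralogue, had 172 and 109 UMIs, and its highest levels were in neutrophil-like cells (16.6 and 14.6 CPM). Rpl10l, known as a testis paralogue, had 0 UMIs in both libraries, which allows at most 0.0220 CPM in Arg and 0.0174 CPM in Control. Intervals and limits here cover counting error only.

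The share of UMIs from the family ordered the cell classes in a similar way in both libraries. It was highest in the Rhox5 cluster, 27.5% in Arg and 25.9% in Control. Mast-like cells (166 and 52 cells) followed with 20.2% and 18.8%. The lymphoid classes sat close together: the Cd8a clusters at 18.7% and 19.9%, CD8 T-like cells at 18.6% and 19.3%, CD4 T-like cells at 18.6% and 19.6%, and NK-like cells at 18.6% and 19.2%. The spread between single cells within each of these classes was several times wider than the gaps between them, with a middle range of 14.7% to 21.1% in CD8 T-like cells of Arg. Regulatory T-like cells (Treg, marked by Foxp3) were lower than the other T cell classes, at 15.8% in each library. Type 1 conventional dendritic-like cells (cDC1) had 17.3% and 17.5%, type 2 (cDC2) 16.2% and 17.2%, mature dendritic-like cells 13.9% and 15.5%, and plasmacytoid dendritic-like cells (pDC) 12.7% and 13.2%. Monocyte-like cells had 11.4% and 12.8%. Neutrophil-like cells were the lowest of the 14 classes described, with 3.31% and 4.91% and a median of only 52 and 68 ribosomal protein UMIs per cell. A small unnamed cluster led by Zfpm2 and Ghr, which is not described further, had 6.06% in Arg (36 cells) and 4.25% in Control (60 cells). Macrophage-like cells changed place: at 15.9% in Control they lay level with Treg-like cells and above mature dendritic-like and pDC-like cells, and at 12.4% in Arg they lay below all of these. Mast-like cells lay above all these lymphoid classes in Arg. In Control they lay below the Cd8a clusters and CD8 T-like, CD4 T-like and NK-like cells, but above Treg-like cells.

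**Figure D1:**
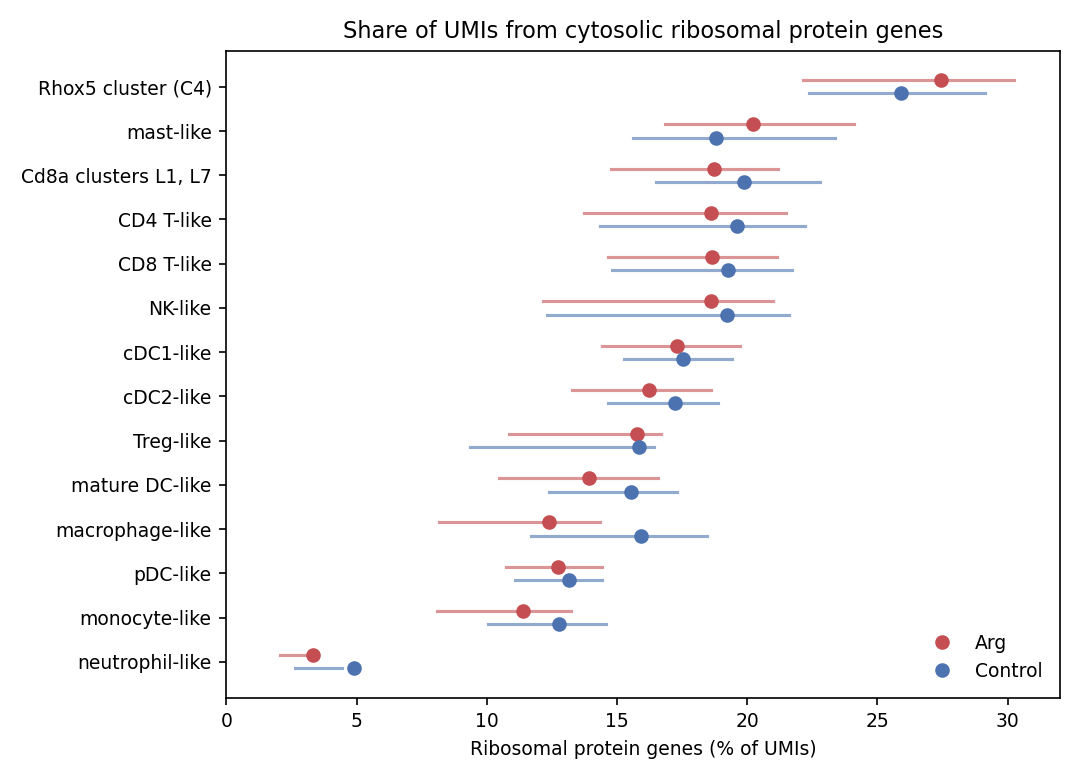
Share of UMIs from the 85 ribosomal protein genes (horizontal axis, percent) in each cell class; points are summed counts of 1 library (red Arg, blue Control) and lines run from the lower to the upper quartile of the single cells. The Rhox5 cluster lies at 27.5% and 25.9%, macrophage-like cells at 12.4% and 15.9%, and neutrophil-like cells at 3.31% and 4.91%.

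Among macrophage-like cells, the family took 12.4% of UMIs in Arg (4295 cells, 95% interval 12.38% to 12.40%) and 15.9% in Control (5334 cells, 15.91% to 15.93%), a ratio of 0.778. The median cell had 11.1% and 15.3%. Different clusters hold most of the class in the 2 libraries: cluster C0, led by Mmp13 and Arg1, has 2373 Arg and 1264 Control cells, and cluster C2, led by Ccl12 and Ch25h, has 497 and 2084. The share was lower in Arg within all 6 clusters of the class: 12.4% against 15.6% in C0, 14.9% against 17.5% in C2, 9.87% against 11.7% in C7 (led by Lyve1), 14.6% against 16.4% in C10, 10.6% against 11.96% in C11 (led by Nos2) and 12.8% against 15.1% in L10. L10 came from a second clustering of cells first grouped with T and NK cells, and its median was 3598 UMIs. Its macrophage markers had a mean log2 fold over the other clusters of 0.74, the lowest of the 6. Weighting the 6 clusters, L10 included, to 1 common mix gave 12.8% against 15.4%. It was also lower within each range of UMIs per cell, from 8.88% against 11.3% in cells of 500 to 5000 UMIs to 13.6% against 15.8% in cells of 20000 UMIs and over.

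The difference was spread over both subunits. Of the 85 members, 82 reached 10 CPM in the mean of the libraries; 81 of these were lower in Arg, where 48.9% of all genes tested were, and 1, Rps27rt, was higher. The threshold for a count is a log2 ratio of Arg over Control, with 5 CPM added to each value, of at least 0.32 in size. Past it, 50 members were lower, where 12.6% of all genes were, and 0 were higher, where 14.9% of all genes were. With the clusters weighted to 1 common mix, 26 members were lower past the threshold, and the share of all genes was not computed there. The median log2 ratio was -0.36 for the members and 0.01 for all 7740 genes. Both subunits were alike in this: the median was -0.36 over 31 small subunit genes and -0.35 over 43 large subunit genes. Among the stalk genes, Rplp0 stood at 1581 CPM in Arg and 2064 CPM in Control (-0.38), Rplp1 at 3583 and 4688 CPM (-0.39) and Rplp2 at 1886 and 2137 CPM (-0.18).

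The members farthest down in macrophage-like cells were Rpl5, Rpl22l1, Rps18, Rpl10a and Rpl14. Rpl5, which with Rpl11 and the 5S RNA forms a particle that also holds back Mdm2, stood at 618 CPM in Arg and 1008 CPM in Control (log2 ratio -0.70; fold 0.613, interval 0.605 to 0.622). Rpl22l1, the paralogue of Rpl22 known from T cell development, stood at 431 and 699 CPM (-0.69). Rps18 stood at 984 and 1541 CPM (-0.64), but 2 near-identical copies of its 3′ end are listed in the table, so part of its reads may sit elsewhere. Rpl10a stood at 911 and 1419 CPM (-0.64) and Rpl14 at 726 and 1102 CPM (-0.60). At the other end were short genes. Rps27 stood at 1291 and 1295 CPM (log2 ratio 0.00), Rps28 at 1014 and 1057 CPM (-0.06), Rpl41 at 2017 and 2124 CPM (-0.07) and Rps29 at 2144 and 2337 CPM (-0.12). Rps27rt, a copy of Rps27 with an identical 3′ end, stood at 54.6 and 50.8 CPM (0.09), and reads of this pair cannot be told apart with certainty. The signs of Rps27, Rps28 and Rpl41 are not fixed: Rps28 and Rpl41 were at 0.05 each at the common mix, and Rps27 was at 0.02 with doublets kept. The paralogues Rpl36al (652 and 786 CPM, -0.27) and Rps27l (563 and 718 CPM, -0.35) lay near the members' median.

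**Figure D2:**
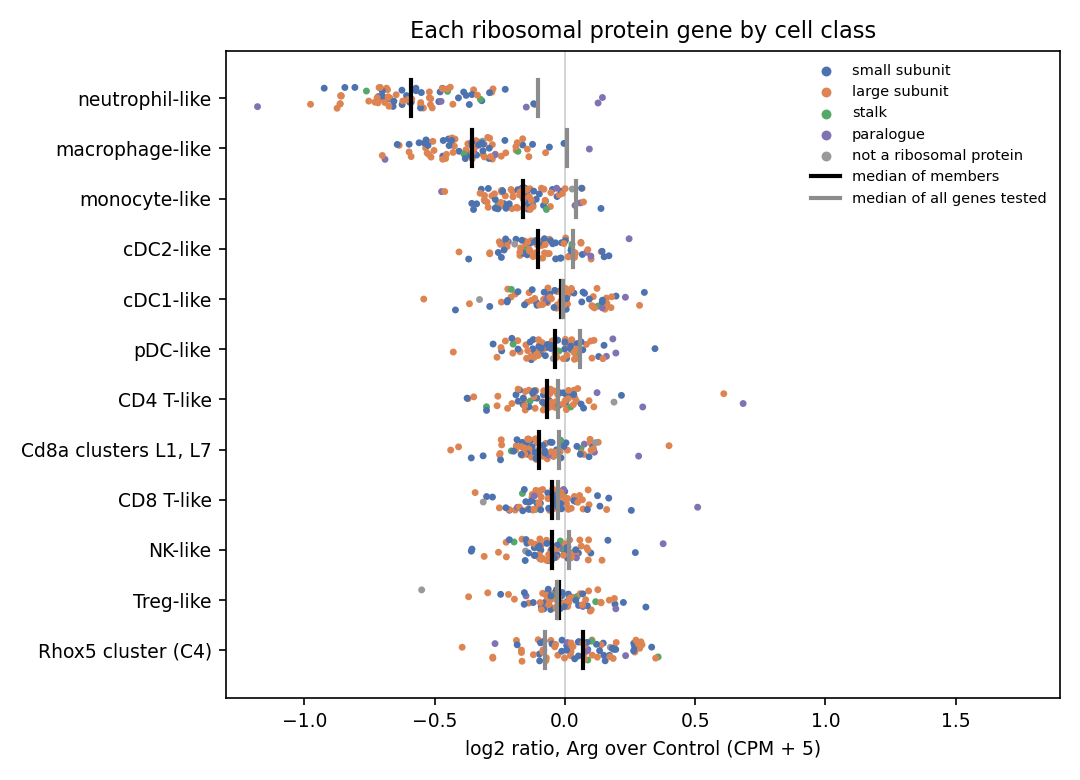
Log2 ratio of Arg over Control (CPM with 5 added) of every member tested (points, coloured by role) in 12 cell classes; black bars are the members' median and grey bars the median of all genes tested. In macrophage-like cells the members centre on -0.36 with all genes at 0.01, in neutrophil-like cells on -0.59, and in the Rhox5 cluster on 0.07.

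Measures of cell state and of other cells moved along with this result. In macrophage-like cells the nuclear RNA Malat1 made up 0.607% of UMIs in Arg and 0.432% in Control, and the mitochondrial share was 1.63% and 1.79%. Of the 3 nuclear and quality RNAs, all were higher in Arg and 1, Malat1, passed the threshold. Haemoglobin RNA, a sign of red cells, was far higher in Control: Hbb-bs stood at 0.0212 CPM in Arg and 64.5 CPM in Control, and both red cell genes that reached the minimum level were lower in Arg. The part of these in the result was not tested.

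Other genes of the translation machinery, taken from lists, were also lower in macrophage-like cells of Arg. These counts stand beside 12.6% of all genes lower past the threshold and 48.9% lower at all. All 5 elongation factor genes were lower past the threshold, with a median log2 ratio of -0.50. Eef1a1, which carries aminoacyl-tRNA to the ribosome, stood at 3611 CPM in Arg and 5100 CPM in Control, and Eef2, the translocase, at 382 and 547 CPM. The exchange factor subunits had similar ratios: Eef1b2 (667 and 893 CPM), Eef1d (179 and 251 CPM) and Eef1g (248 and 362 CPM). Of 25 ribosome biogenesis genes 22 were tested, all 22 were lower and 16 passed the threshold, with a median of -0.47. Gar1, of the pseudouridylation particles, stood at 27.7 and 52.5 CPM, Nolc1 at 33.4 and 60.2 CPM, and Nop56, of the box C/D particles, at 28.2 and 50.4 CPM. Of 14 other 5′ TOP genes, 14 were lower and 6 passed the threshold (median -0.31). The snoRNA host Gas5 had the lowest ratio among them, with 158 CPM in Arg and 247 CPM in Control. Hnrnpa1 stood at 238 and 328 CPM and Snhg1 at 94.2 and 134 CPM. Among ribosomal proteins outside the naming rule, Rack1, a scaffold on the small subunit, passed the threshold at 811 CPM in Arg and 1236 CPM in Control. Fau stood at 3085 and 3612 CPM and did not pass it.

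Monocyte-like cells showed a smaller difference. The share was 11.4% in Arg (3398 cells) and 12.8% in Control (1503 cells), and it was lower in both clusters of the class, 11.4% against 13.2% in C1 and 11.3% against 12.4% in C6. Of 82 members tested 74 were lower, where 39.8% of all genes were. Past the threshold 6 were lower, where 5.97% of all genes were, and 0 were higher, where 7.36% were. The count of 6 became 13 with TMM scaling, 11 with classes from marker UMIs and 15 with cells thinned to 2000 UMIs. The share of all genes past the threshold was not computed in these settings. Rpl22l1 (415 CPM in Arg, 578 in Control) and Rpl5 (512 and 707 CPM) were again the lowest, followed by Rps14, Rps18 and Rps15. Rps2 (1566 and 1422 CPM), Rpl41, Rps28, Rps27l and Rps27rt had the highest ratios. In the lists, all 5 elongation factor genes were lower, with 1 past the threshold, while ribosome biogenesis genes were split, 11 higher and 10 lower.

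In neutrophil-like cells the share was 3.31% in Arg (227 cells) and 4.91% in Control (432 cells), a ratio of 0.675. Of 81 members tested 79 were lower, where 58.4% of all genes were. Past the threshold 71 were lower, where 32.8% of all genes were, and 0 were higher, where 20.5% were. Rpl22l1 had 55 and 276 UMIs (102 and 237 CPM), and Rpl5 had 76 and 328 UMIs (141 and 281 CPM). Rpl38 (274 and 297 CPM) and Rps28 (316 and 344 CPM) differed least among the named members. This value depends on how the cells are picked. With neutrophil cells taken by marker UMIs in each cell (207 and 391 cells) the log2 ratio of the share was 0.17 in place of -0.57. With those cells 2 members were lower past the threshold and 17 were higher. The share of all genes past it was not computed for them, so these counts cannot be set beside such a share. The direction in neutrophil-like cells is thus not settled by these libraries. Genes that lead the Rhox5 cluster, whose ribosomal protein share was high, were also lower in Arg here: Rhox5 had 1 UMI in Arg and 13 in Control, Lgals7 had 2 and 20, and Rpl39l had 0 and 14. The fibroblast marker Col1a2, also detected in most cells of that cluster, had 3 and 17. These UMIs are not scaled to the class total, which was larger in Control. Ptprc had 719 UMIs in Arg and 1736 in Control. The mitochondrial share was 0.392% and 0.589%. The part of these in the result was not tested.

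In lymphoid and dendritic classes few members passed the threshold. In CD8 T-like cells 60 of 82 members were lower, where 55% of all genes were. Past the threshold 1 was lower (10.1% of all genes) and 1 higher (6.36%). In NK-like cells 58 of 82 were lower, where 45.8% of all genes were, with 2 lower past the threshold (4.01% of all genes) and 1 higher (4.23%). The share was lower in 2 of the 4 NK-like clusters. One of these, L11, held only 76 and 58 cells. Clusters L0 and L8 went the other way. L0, the largest, had 14.7% in Arg (789 cells) and 14.2% in Control (319 cells). L8 had 18.7% in Arg (292 cells) and 16.1% in Control (117 cells). Its log2 ratio of 0.22 was larger in size than the -0.17 of monocyte-like cells. The 4 clusters at a common mix gave 17.7% in Arg and 17.1% in Control. CD4 T-like cells had 3 members lower past the threshold (18% of all genes) and 2 higher (14.7%). Treg-like cells had 2 lower (13.8%) and 0 higher (10.3%), and cDC1-like cells 4 lower (12.6%) and 0 higher (10.6%). cDC2-like cells had 2 lower (11.4%) and 0 higher (13.8%), pDC-like cells 1 lower (11%) and 1 higher (17%), and the Cd8a clusters 3 lower (13.7%) and 1 higher (11.1%). As a share of the members, each of these counts past the threshold lay below the share of all genes. The sign of the difference in share turned with the processing in CD4 T-like, NK-like, Treg-like and pDC-like cells.

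The Rhox5 cluster had the highest share of the classes described, 27.5% in Arg and 25.9% in Control. Mast-like cells, too few to be compared by member, also had the higher share in Arg. In the Rhox5 cluster the log2 ratio of the share was 0.08, and 55 of 83 members were higher in Arg, where 33.8% of all genes were. Past the threshold 3 members were higher, where 4.57% of all genes were, and 1 was lower, where 11.4% of all genes were. With TMM scaling 9 members were higher, and the share of all genes was not computed there. Those higher were Rplp0 (5746 and 4482 CPM), the scaffold of the stalk, Rpl41 (4291 and 3369 CPM) and Rps24 (6696 and 5314 CPM). The one lower was Rpl4, at 917 CPM in Arg and 1207 CPM in Control. The sign differed between ranges of UMIs per cell. In cells of 20000 UMIs and over the share was 27.7% in Arg and 25.9% in Control (387 and 1145 cells). In cells of 10000 to 20000 UMIs it was 22.5% and 25.8% (32 and 208 cells), in cells of 5000 to 10000 UMIs 21.8% and 27.3% (16 and 37 cells), and below that 21.9% and 20.9% (92 and 47 cells).

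The balance of members within the family also differed between the libraries. To set aside the level of the family as a whole, each member was expressed as a share of the summed member UMIs of its class and library. All classes come from the same 2 libraries, so the values are given side by side and do not support each other. For Rpl5 the log2 ratio of this share was -0.34 in macrophage-like, -0.30 in monocyte-like, -0.30 in CD8 T-like, -0.53 in cDC1-like cells and -0.25 in the Rhox5 cluster, and it ranged from -0.53 to -0.25 over 12 classes. For Rps28 the ratio was 0.30 in macrophage-like, 0.23 in monocyte-like, 0.18 in CD8 T-like, 0.32 in cDC1-like cells and 0.10 in the Rhox5 cluster, ranging from 0.10 to 0.45. Rps27 ranged from 0.07 to 0.36 and Rpl41 from 0.02 to 0.30.

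Coding length went with this order. Across the 80 members with at least 50 CPM in macrophage-like cells, the log2 ratio of the share of member UMIs had a Pearson correlation of -0.58 with log coding length (Spearman -0.55). It was -0.54 in monocyte-like, -0.55 in neutrophil-like, -0.45 in CD8 T-like cells and -0.26 in the Rhox5 cluster. Rpl41 has a coding length of 75 bases, Rps28 207 and Rps27 252, while Rpl5 has 891. Rpl22l1, next to Rpl5 at the low end in macrophage-like cells, has only 366. The correlation is across genes of 1 pair of libraries, and the genes share their cells, depth and chemistry.

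**Figure D3:**
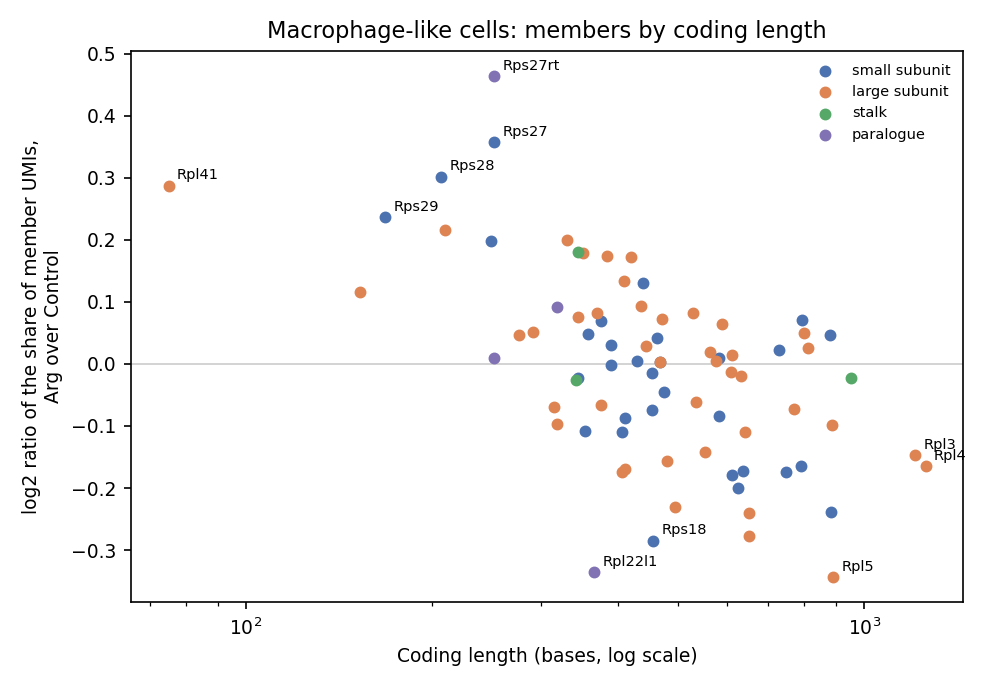
Coding length (horizontal, bases, log scale) against the log2 ratio, Arg over Control, of each member's share of all member UMIs in macrophage-like cells (vertical); each point is 1 member. Short genes such as Rpl41, Rps28 and Rps27 lie above 0 and the longer Rpl5 below it (Pearson correlation -0.58 over 80 members). Rps18 and Rpl22l1 also lie below 0, with coding lengths of only 456 and 366 bases.

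Between classes, Rpl39l differed more than any other member with 50 CPM in some class. In the Rhox5 cluster it stood at 409 CPM in Arg (7234 UMIs) and 494 CPM in Control (25545 UMIs), with a median of 11 and 14 UMIs per cell. Those cells held 93.9% of all Rpl39l UMIs in Arg and 95.4% in Control. Its share of member UMIs was 80.8 times the median of the other 13 classes in the mean of the libraries. The libraries were unlike in this, and the medians rest on low counts. In Arg Rpl39l made up 0.149% of member UMIs, against a median of 0.00125% over the classes. In Control it made up 0.191%, against 0.00468%. In the other 13 classes described it lay between 0 and 5.35 CPM in Arg and between 0 and 12.1 CPM in Control, with 5.35 and 11.2 CPM in macrophage-like cells. The shallow cluster led by Gm26917, which is outside these classes, had 20.6 CPM in Arg (6 UMIs) and 106 CPM in Control (69 UMIs). The ratio was 55.7 with classes from marker UMIs and 60.0 with doublets kept. Thinned to 2000 UMIs, 56.9% (Arg) and 57.6% (Control) of the cluster's cells had an Rpl39l UMI, against 1.06% and 2.53% of macrophage-like cells. Rpl39 itself, with 3651 and 2980 CPM in the cluster, was detected across classes, and there were 11.2 (Arg) and 16.6 (Control) Rpl39l UMIs per 100 Rpl39 UMIs in the cluster and 0.343 and 0.604 in macrophage-like cells.

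Other genes that lead the cluster were also found at low levels outside it. In macrophage-like cells there were 1.58 (Arg) and 1.20 (Control) Rpl39l UMIs per Rhox5 UMI, and in the cluster 0.856 and 0.833. Where counts were small the ratio ranged widely, among classes with any Rpl39l UMI from 0.462 in Treg-like cells of Control (6 Rpl39l UMIs) to 7 in cDC1-like cells of Arg (7 Rpl39l UMIs). Lgals7 did not go with Rpl39l in T cell classes: CD4 T-like cells had 101 Lgals7 UMIs in Arg and 19 in Control with 6 and 13 Rpl39l UMIs, and CD8 T-like cells had 216 and 86 with 15 and 19. Control, which held 1437 cells of the cluster against 527, also had the higher Rpl39l level in macrophage-like (11.2 against 5.35 CPM), monocyte-like (6.84 against 2.94 CPM), NK-like (6.37 against 1.88 CPM) and CD8 T-like cells (5.02 against 1.86 CPM). In neutrophil-like cells of Arg and mast-like cells of Control 0 Rpl39l UMIs were found. Whether these low counts come from free RNA or from the cells themselves was not tested, and no difference between classes is read from them.

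**Figure D4:**
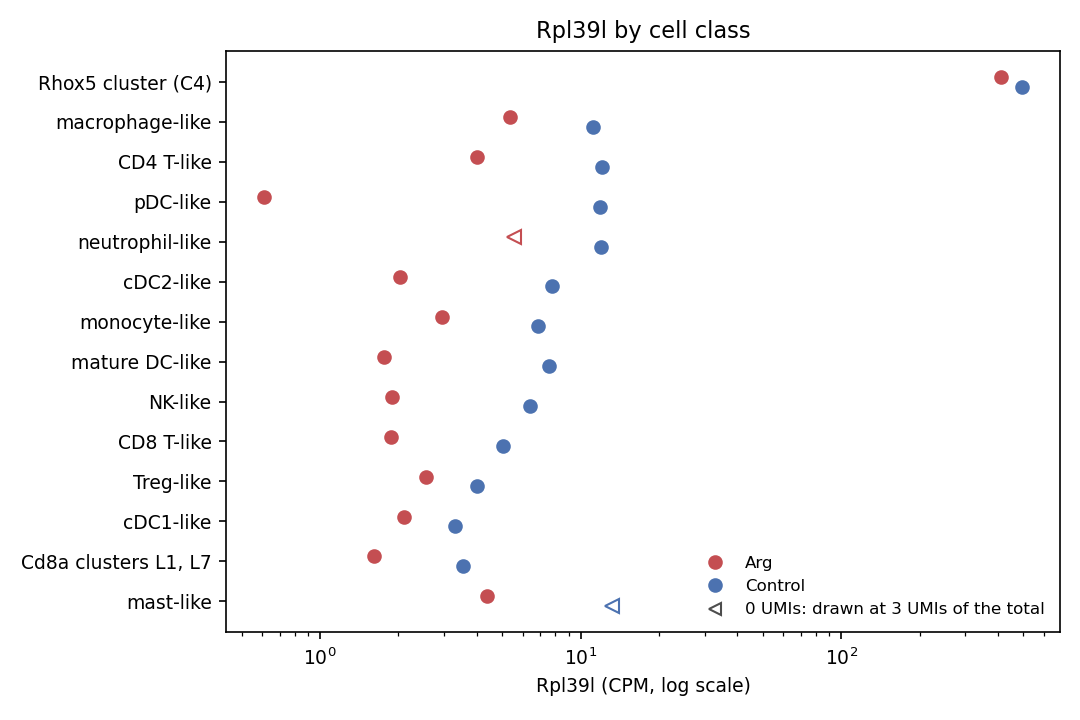
Rpl39l level (horizontal, CPM, log scale) in each class with 50 or more cells per library, Arg in red and Control in blue; open triangles mark 0 UMIs and are drawn at the level that 3 UMIs would give. The Rhox5 cluster lies at 409 and 494 CPM, and macrophage-like cells at 5.35 and 11.2 CPM.

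The other paralogues and a few standard members were also uneven between classes. Rps27l, a paralogue of Rps27 known as a p53 target, made up 1.41% (Arg) and 1.30% (Control) of member UMIs in mature dendritic-like cells, 1961 and 2013 CPM. The next class had 0.454% and 0.451%, and CD4 T-like cells were lowest with 0.0937% and 0.0719%. Rpl31, a large subunit gene near the exit of the peptide tunnel, made up 1.22% and 1.18% in pDC-like cells, 1552 and 1548 CPM, and 0.372% and 0.390% in the next class. Rpl36al, the paralogue of Rpl36a, was also highest in pDC-like cells, with 0.893% and 0.774% against 0.645% and 0.588% in the next class and 0.336% and 0.305% in mature dendritic-like cells, the lowest. For each of these the highest class was the same in both libraries and the gap to the next exceeded the gap between libraries.

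Rpl22l1 was highest in mast-like cells, 0.717% (Arg) and 0.888% (Control) of member UMIs, and lowest in mature dendritic-like cells, 0.306% and 0.289%. Rps19, of the small subunit head, was highest in mature dendritic-like cells with 1.43% and 1.74% and lowest in mast-like cells with 0.516% and 0.726%. Rpl21 was highest in the Rhox5 cluster, 0.862% and 0.830%, and lowest in mast-like cells, 0.318% and 0.350%. Neutrophil-like cells carried the largest fraction of Rps9 (3.61% and 3.85%), Rps27 (2.40% and 2.02%), Rps29 (2.28% and 1.88%) and Rps27rt (0.106% and 0.0647%). The Rhox5 cluster had the smallest fraction of each of those 4, with 1.37% and 1.33% for Rps9 and 0.735% and 0.700% for Rps27. For Rps27rt the class next to neutrophil-like cells was close, with 0.0927% and 0.0587%. Its reads cannot be told apart from those of Rps27 with certainty, so its rank is uncertain. Rps19bp1 was highest in macrophage-like cells, 0.0304% and 0.0303%.

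**Figure D5:**
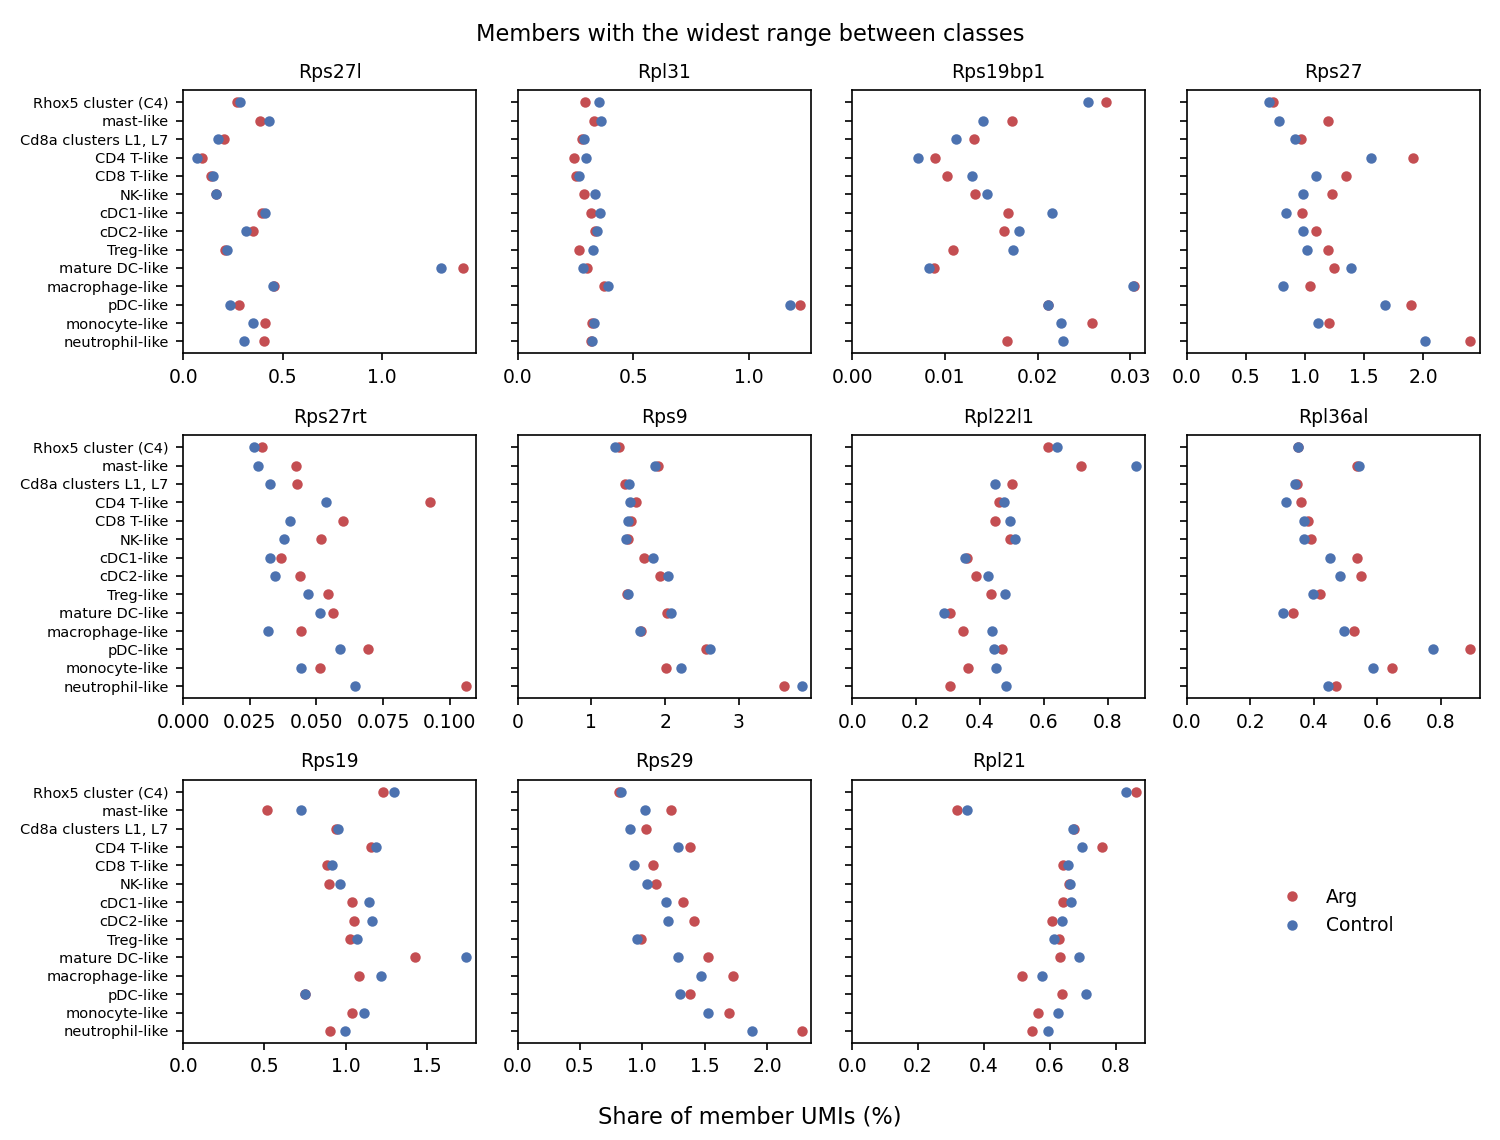
Share of member UMIs (horizontal, percent) of the 11 members other than Rpl39l with the widest range between classes; each row is a class, red points are Arg and blue points Control. Rps27l stands out in mature dendritic-like cells (1.41% and 1.30%), Rpl31 in pDC-like cells (1.22% and 1.18%) and Rps9 in neutrophil-like cells (3.61% and 3.85%).

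Some levels rest on how reads of near-identical genes were shared out. Of the 85 members, 22 have an annotated copy that matches at least 97% of the last 200 bases of the transcript, and for 9 such a copy is also listed in the table. The clearest cases are Rpl9 with Rpl9-ps6 (3487 and 85.7 CPM in Arg), Rpl41 with Gm10076 (2335 and 245 CPM), Rps27 with Rps27rt (1665 and 70.0 CPM), Rps18 with Gm10260 (1439 and 212 CPM) and Rpl35 with Gm2000 (849 and 103 CPM). Rpl39l, Rps27l, Rpl31 and Rpl5 have no such copy. The 5 features with -ps names that the rule left out held 0.0173% (Arg) and 0.0168% (Control) of all UMIs.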

How the data were processed

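The files hold UMI counts per gene and cell as the authors deposited them, 1 matrix per library. The matrices come from Cell Ranger 7.0.1 per the file headers, whereas version 2.2.2 and the build GRCm38 stand in the submitters' processing notes, and no source here tells if introns were counted. Cells with at least 500 UMIs, 200 genes and at most 10% mitochondrial UMIs were kept (647 Arg and 826 Control barcodes failed the mitochondrial limit), and Scrublet calls were removed (947 and 751, 6.83% and 5.57%). Clusters came from scanpy 1.11.5 (2000 variable genes without the members, 30 components, 20 neighbours, Leiden resolution 1) and were named from at least 3 of the fixed markers of a class. The rules that leave clusters unnamed, and the names Rhox5 and Cd8a, were set after the clusters were seen. The unnamed shallow cluster led by Gm26917, Cmss1 and Gm42418 (162 and 389 cells, shares of 16.2% and 25.1%) is left out of the descriptions, as are classes under 50 cells in a library and 2 other unnamed clusters. Counts were summed per class and library, and classes with at least 100 cells in both were compared as log2 ratios with 5 CPM added. Genes with a mean of at least 10 CPM were tested and a log2 ratio of at least 0.32 in size counted as past the threshold. Shares have exact Clopper-Pearson intervals and ratios exact conditional Poisson intervals at 95%, for counting error only. The fold threshold and the ratio intervals were tested on simulated counts, and the thinning on cells of Control. Other steps, clustering and naming among them, were not tested in this way. Named members are the 5 highest and 5 lowest per class of at least 50 CPM, the 12 widest between classes, the paralogues and the stalk; of the other lists, the 3 farthest each way, with partners and elongation factors always; 1 listed gene is not reported here. Members and lists were chosen with earlier results of these data known. GENCODE vM21 gave positions and coding sequences, and RefSeq gave start sites. TMM scaling used edgeR 4.0.16.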

Additional observations from a re-analysis of the deposited data

Results flagged for a closer look

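The share of UMIs from ribosomal protein genes differed in sign between classes: it was lower in Arg in macrophage-like and neutrophil-like cells and higher in the Rhox5 cluster. The log2 ratio of macrophage-like cells minus that of the Rhox5 cluster was -0.45, and that of neutrophil-like cells minus the same was -0.65. With 1 library per diet the difference was not tested. The sign in the Rhox5 cluster and in neutrophil-like cells turned in the subsets given in the report.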

How the results depend on the processing

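Each value below is a log2 ratio of the share, Arg over Control, unless said otherwise. The cause of a change was not tested. Counts of members past the threshold in other settings have no share of all genes beside them, because it was not computed. No paired analysis was possible because each diet has 1 library. For macrophage-like cells (-0.36 as reported) the ratio was -0.35, -0.47, -0.35 and -0.21 in cells of 500 to 5000, 5000 to 10000, 10000 to 20000 and over 20000 UMIs, ranges added after seeing the data. It was -0.34 with classes from marker UMIs, -0.37 with clusters made with the members, -0.26 at the common mix, -0.35 with doublets kept, -0.42 as a mean over cells, -0.37 at a mitochondrial limit of 5% and -0.37 with none, -0.36 at resolution 0.5 and -0.41 thinned to 2000 UMIs. The members lower past the threshold numbered 26 at the common mix against 50. For monocyte-like cells (-0.17) the same settings gave -0.14 at 10000 to 20000 UMIs, -0.31 and -0.24 in the 2 lower ranges, -0.19 with marker classes, -0.19 with clusters made with the members, -0.18 at the common mix, -0.19 with doublets kept, -0.21 as a mean over cells, -0.19 and -0.17 for the mitochondrial settings, -0.16 at resolutions 0.5 and 2, and -0.21 thinned. Its members lower past the threshold numbered 13 with TMM, 11 with marker classes and 15 thinned, against 6. For neutrophil-like cells (-0.57) the ratio was 0.17 with marker classes, -0.35 in cells under 5000 UMIs, -0.45 with doublets kept, -0.41 as a mean over cells, -0.60 with no mitochondrial limit, -0.46 at resolution 2 and -0.43 thinned; its lower members numbered 2 with marker classes, where 17 were higher. For the Rhox5 cluster (0.08) it was 0.10 in cells over 20000 UMIs, 0.0914 with marker classes, 0.0693 with clusters made with the members, 0.0872 without mitochondrial genes and Malat1, 0.0729 with doublets kept, 0.0135 as a mean over cells, 0.0908 at a mitochondrial limit of 5% and 0.0928 with none, 0.0672 at resolution 0.5 and 0.0411 thinned, and 9 members were higher with TMM against 3. The Rpl39l ratio of 80.8 was 55.7 with marker classes and 60.0 with doublets kept. Among the classes with small differences the ratio changed sign in some settings for CD4 T-like (-0.11 to 0.13), Treg-like (-0.01 to 0.16), NK-like (-0.07 to 0.05) and pDC-like cells (-0.07 to 0.06). In macrophage-like cells Rps27, Rps28 and Rpl41 also crossed 0, with highest values of 0.02, 0.05 and 0.05 in that order.

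Depth limits the neutrophil-like cells most, where Rpl22l1 rests on 55 and 276 UMIs. Classes under 100 cells in either library were not compared.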

Other observations

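Genes of the growth pathways that act on ribosome production did not move as a block in macrophage-like cells. Of 21 genes on a list for mTORC1 and Myc growth control 17 were tested, with a median log2 ratio of 0.07. Of these 11 were higher in Arg and 6 lower, where 48.9% of all genes were lower. Past the threshold 4 were higher, where 14.9% of all genes were, and 2 were lower, where 12.6% were. Mxd1, which encodes an antagonist of Myc, stood at 217 CPM in Arg and 105 CPM in Control, and Ddit4, which encodes an inhibitor of mTORC1, at 20.5 and 9.92 CPM. Eif4ebp1, a translation repressor that mTORC1 phosphorylates, stood at 257 and 196 CPM. Myc itself stood at 32.7 and 51.2 CPM, Rps6ka1 at 29.0 and 39.9 CPM and Mxd4 at 17.9 and 20.7 CPM.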
